A study of Mus musculus with 8 samples.

Results

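Cytosolic ribosomal proteins are the protein parts of the ribosome that translates nuclear-encoded mRNA. Their genes were examined here in macrophages of epididymal white adipose tissue (eWAT). The genes were chosen by name: a symbol of Rpl or Rps followed by a digit, or Rplp0, Rplp1, Rplp2, or Rpsa, leaving out the Rps6 kinases and rows named as pseudogenes. The rule found 93 of the 54146 genes in the deposited counts. They comprised 46 genes of the large subunit, 31 of the small subunit, 7 paralogs, 8 retrocopies (copies of a spliced mRNA elsewhere in the genome), and Rps19bp1. The split of paralogs from retrocopies was a listing, and paralogs can be retrotransposed copies too. Rps19bp1 encodes a protein that binds RPS19, and it met the rule by its name alone.

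The 8 libraries came from 4 C57Bl6 mice, each of which gave 1 library of FCGR4+ and 1 of FCGR4- eWAT macrophages. All mice had eaten a high-fat diet ad libitum for 24 weeks and had then been kept on short-term caloric restriction (stCR), with 30% less food, for 2 weeks. Both populations therefore shared the diet and the stCR, and the comparison was between macrophages with and without surface FCGR4, an activating Fcγ receptor. The labels give mice 1 and 2 one animal ID prefix and mice 3 and 4 another.

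A ribosome joins a small subunit, which reads the mRNA, to a large subunit, which forms the peptide bonds. Each subunit needs its proteins in fixed proportion, and the mRNAs of these proteins are among the most abundant in most cells. Many begin with an unbroken run of C and T, the 5′ terminal oligopyrimidine (TOP) tract, through which mTORC1 signaling controls their translation. Their short, stable mRNAs have left many processed copies in the mouse genome.

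C and T runs near the annotated start are shown in the windows below because many of these genes have one and the choice by name did not use them. Whether a run lies at the true 5′ end of the mRNA, as a TOP tract does, was not measured. In RefSeq sequences of GRCm38.p6, 57 of the 77 subunit genes had an annotated start. Unbroken runs of C or T were read on the gene's own strand within 30 bases of either side of each annotated start. A run of at least 8 at any start was present in 32 of them (56.1%). Among 16513 protein-coding genes with an annotated start, 25.5% had such a run. The letters CTTTCC were searched on the gene's strand alone in the same windows, again at any start. They were present in 11 of the 57 genes (19.3%) and in 3.26% of the protein-coding genes, and they can lie inside a run. In both sets, genes with more annotated starts had more chances of a match. The median longest run was 9 bases in the subunit genes and 6 bases in the protein-coding genes. The windows are written 5′ to 3′ on the gene's strand, at the annotated start with the longest run, which is in capitals. Counted from the annotated start as +1, with no 0, the run begins at -5 in Rpl35a, -2 in Rps27, -14 in Rpl7a, 21 in Rpsa, and 12 in Rplp0. Rpl35a and Rps27 have runs that hold CTTTCC, Rpl7a has the longest run of those shown, and Rpsa and Rplp0 have runs under 8 bases. Rpl35a was at chr16:33056468-33056497 (plus strand), Rps27 at chr3:90213632-90213661 (minus strand), Rpl7a at chr2:26910788-26910817 (plus strand), Rpsa at chr9:120127774-120127803 (plus strand), and Rplp0 at chr5:115559466-115559495 (plus strand).
Rpl35a: cggggcttgCCTTCCTCTTTCCgccatctt
Rps27: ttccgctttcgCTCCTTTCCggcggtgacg
Rpl7a: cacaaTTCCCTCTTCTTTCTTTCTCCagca
Rpsa: tccggccgcccgTCCTTTCgcgctacccgg
Rplp0: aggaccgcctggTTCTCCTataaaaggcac

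Copies matter for these genes because read pairs with more than 1 mapping position entered the count of every such position. The first 60 coding bases of 2 pairs show the difference between a copy that can take its parent's reads and one that cannot, with mismatched bases in capitals. Rps27rt, a retrocopy on chromosome 9, matched Rps27 of chromosome 3 in all 156 aligned coding bases. Rps4l, a retrocopy on chromosome 6, matched Rps4x of chromosome X in 626 of 783 aligned bases (79.9%), and none of its 50-base words occurred in Rps4x.
Rps27rt: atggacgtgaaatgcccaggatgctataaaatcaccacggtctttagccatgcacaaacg
Rps27: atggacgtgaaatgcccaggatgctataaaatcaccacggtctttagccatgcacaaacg
Rps4l: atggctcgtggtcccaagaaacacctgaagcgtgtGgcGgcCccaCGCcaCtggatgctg
Rps4x: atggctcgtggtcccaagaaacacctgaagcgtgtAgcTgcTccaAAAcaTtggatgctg

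Total counts per library lay between 35992794 and 66856746. The test covered the 17095 genes that reached 10 counts in 4 or more libraries, 90 of the 93 members among them. The sort was visible in Fcgr4 itself, which was 2.15, 1.41, 1.36, and 1.51 higher on the log2 scale in FCGR4+ macrophages of mice 1 to 4 (edgeR adjusted P = 0.0162). The summed level of 10 macrophage markers was 29292 to 54331 normalized counts scaled to library size (CPM) in FCGR4+ and 22413 to 47617 in FCGR4- libraries. The summed level of several other cell types' markers was lower in the FCGR4+ library of each mouse. Of mast cell and basophil markers 8 of 8 tested passed the threshold as lower (summed level 14.5 to 30.5 against 389 to 2137 CPM), of fibroblast and preadipocyte markers 6 of 8 (151 to 285 against 383 to 1567 CPM), of neutrophil markers 5 of 7 (115 to 543 against 379 to 2381 CPM), of T and NK cell markers 5 of 9 (1.58 to 9.28 against 13.7 to 50.3 CPM), of dendritic cell markers 4 of 8 (11.5 to 20.9 against 58.6 to 119 CPM), and of B cell markers 3 of 6 (190 to 340 against 450 to 2524 CPM). The part of these cells in the results below was not tested. Fewer cells of a type and less RNA per cell cannot be told apart in such libraries.

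Ribosomal protein genes took a small share of each library and varied between mice in both populations. In FCGR4+ libraries of mice 1 to 4, they held 1.23%, 1.39%, 2.41%, and 2.28% of all counts. In FCGR4- libraries of the same mice, they held 1.55%, 1.25%, 1.59%, and 2.03%. FCGR4+ libraries were lower than their partner in mouse 1 and higher in mice 2, 3, and 4, and the populations overlapped. The mean share was 1.83% ± 0.602 in FCGR4+ and 1.61% ± 0.322 in FCGR4- macrophages (SD, n = 4), and the mean difference within a mouse was 0.222 percentage points ± 0.466 (SD, n = 4). This difference was 0.0242 percentage points without mouse 3 and 0.402 without mouse 1. The counts on small subunit genes relative to large subunit genes were 0.755 ± 0.0342 in FCGR4+ and 0.750 ± 0.0101 in FCGR4- libraries. The share of the 300 rows named as ribosomal protein pseudogenes had the same direction as the members' within each mouse. Its mean was 0.834% ± 0.261 in FCGR4+ and 0.735% ± 0.144 in FCGR4- libraries.

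**Figure D1:**
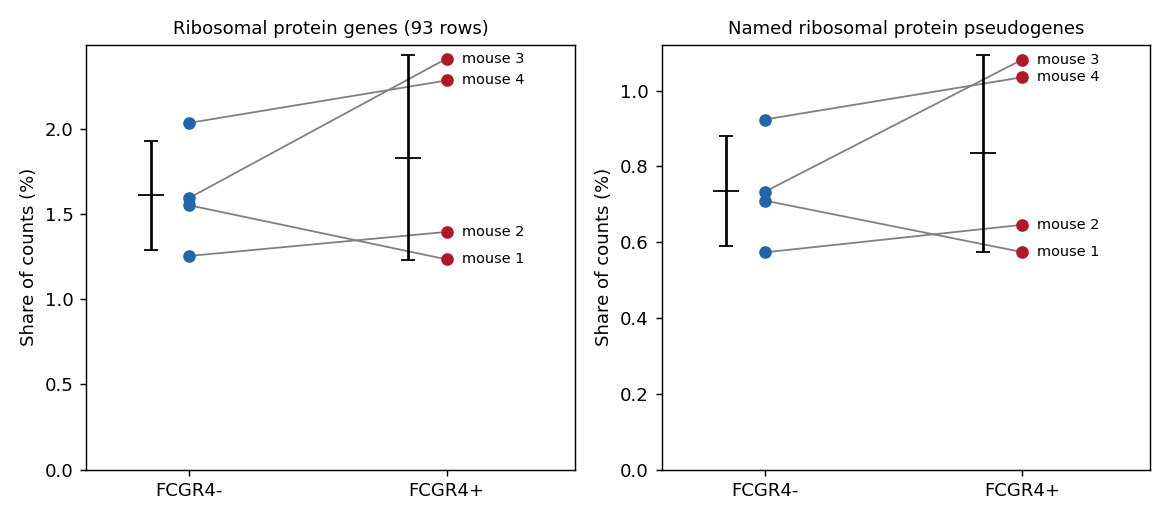
Share of each library's counts (%) on the 93 ribosomal protein genes (left) and on named ribosomal protein pseudogenes (right). Points are libraries, lines join the libraries of a mouse, and black bars give the mean and SD of 4 libraries. On the left, mouse 1 goes from 1.55% in FCGR4- to 1.23% in FCGR4+ and mouse 3 from 1.59% to 2.41%.

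No ribosomal protein gene passed the test between FCGR4+ and FCGR4- macrophages. With mouse as a block, edgeR's quasi-likelihood test called 217 of 17095 genes at an adjusted P value under 0.1 (1.27%), of which 14 were higher (0.0819%) and 203 lower (1.19%) in FCGR4+ macrophages. Of the 90 members tested, 0 were called, and 0 had an unadjusted P value under 0.05, a level that 9.77% of all tested genes reached. The lowest adjusted P value among the members was 0.520 (edgeR). DESeq2 called 0 members and 5.99% of all genes, and 4 members had an unadjusted P value under 0.05, compared with 13.4% of all genes. edgeR's newer quasi-likelihood method called 0 members and 3.68% of all genes, and 2 members reached that level, compared with 12.8% of all genes. These tests do not show that the levels were equal.

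The estimates leaned one way. The log2 fold change was above 0 in 89 of 90 members, compared with 49.7% of all tested genes, and its median was 0.27 for the members and -0.00 for all tested genes. With library size alone as the scaling, it was above 0 in 83 of 90 members. Without mouse 3, it was above 0 in 71 of 90 members, and their median was 0.06. The median standard error of the members was 0.20, and the populations' libraries overlapped in all 90 members (3.91% of all tested genes had no overlap). The members move together within a library, so their number is not the number of independent observations, which is 4 mice.

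**Figure D2:**
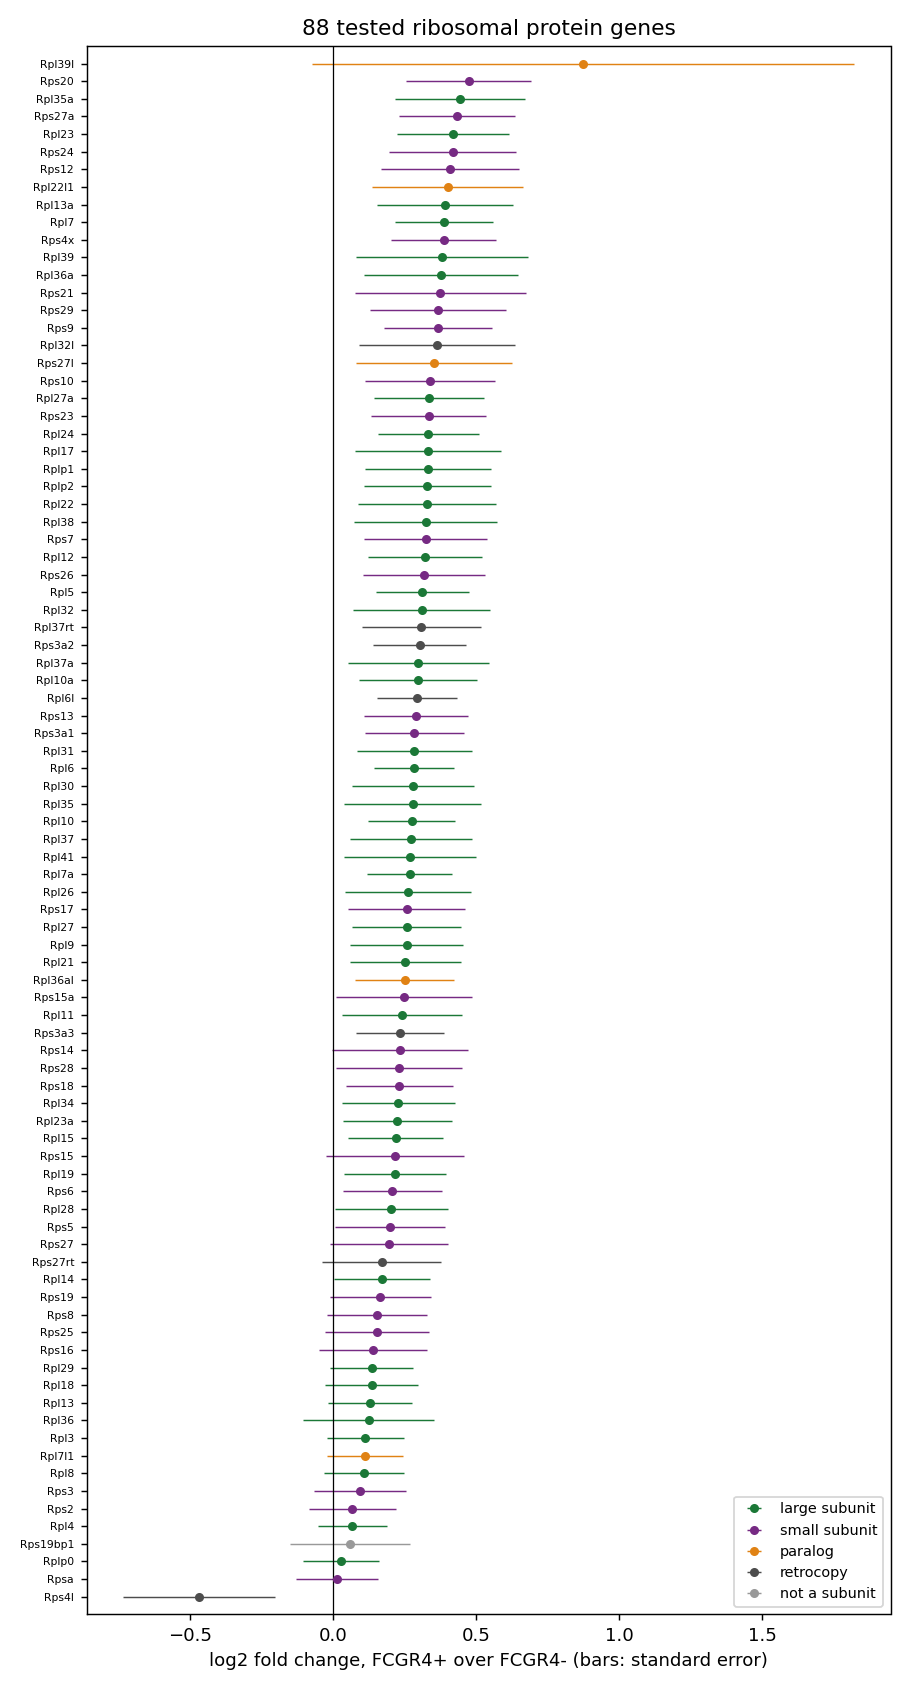
Log2 fold change (FCGR4+ over FCGR4-, x axis) of 88 of the 90 tested ribosomal protein genes, ordered by value, with bars for the standard error and colors for subunit, paralog, or retrocopy. Estimates run from -0.47 for Rps4l to 0.87 for Rpl39l, and the subunit genes shown lie between 0.01 and 0.47.

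Within each mouse, the members moved as a block, and the mice differed. The median log2 ratio of FCGR4+ to FCGR4- of the members was -0.30, 0.14, 0.81, and 0.39 in mice 1 to 4. The corresponding medians over all tested genes were 0.03, -0.00, -0.05, and -0.00. Members above 0 numbered 5, 79, 88, and 87 of 90. The pattern of lower in mouse 1 and higher in the other 3 mice was seen in 72 of 90 members and in 9.75% of all tested genes. By contrast, only 5 of 90 members had the same direction in 4 of 4 mice, compared with 18.9% of all tested genes. Mouse 3 had the highest ratio in 86 members and mouse 1 the lowest in 88.

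**Figure D3:**
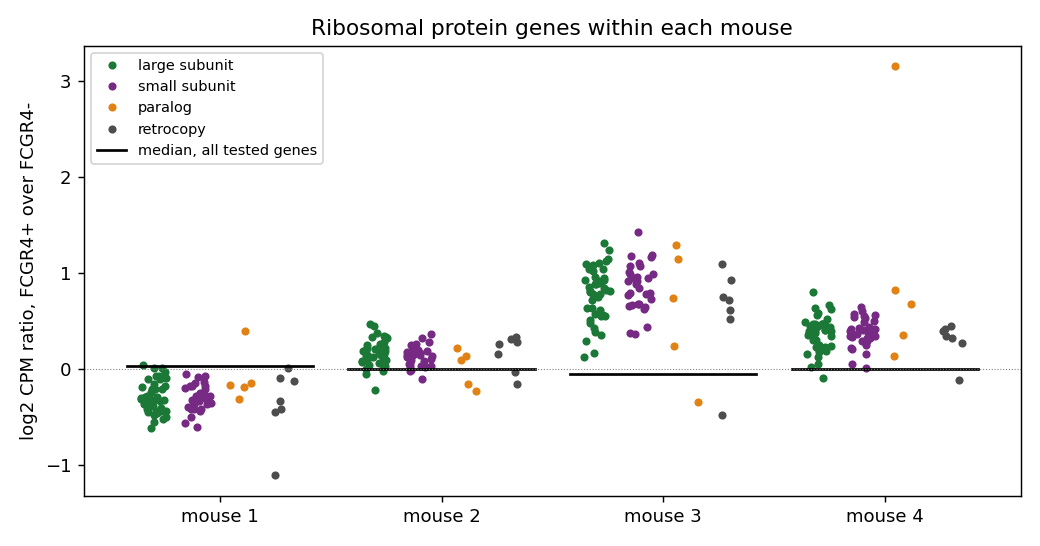
Log2 CPM ratio of FCGR4+ over FCGR4- libraries (y axis) for each tested ribosomal protein gene in each mouse, with black lines for the median of all tested genes. Subunit genes lie mostly below 0 in mouse 1 and above 0 in mice 2, 3, and 4, with the highest values in mouse 3.

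The ID prefixes were also compared apart. In mice 1 and 2 alone, of which mouse 1 was lower and mouse 2 higher, the median log2 fold change of the members was -0.08 and 25 of 90 were above 0. In mice 3 and 4 alone, the median was 0.58 and 89 of 91 were above 0. In that pair 0 members passed the adjusted threshold, while 67 had an unadjusted P value under 0.05 in edgeR, compared with 21.0% of all genes tested there. Without mouse 1, the median was 0.45, and 44 of 90 members had an unadjusted P value under 0.05, compared with 12.1% of all genes. Without mouse 2, 3, or 4, 0 members reached that level. The test of the difference between the ID prefixes called 0 members and 0 genes in all (0.0%), and 47 members had an unadjusted P value under 0.05 there, compared with 13.8% of all tested genes. Other measures also differed by mouse. The share of counts on mitochondrially encoded genes was 0.841, 0.676, 1.51, and 1.61 times as large in FCGR4+ as in FCGR4- libraries of mice 1 to 4, and 21159 to 24264 genes were detected in FCGR4+ and 24901 to 26545 in FCGR4- libraries, fewer in the FCGR4+ library of each mouse. The 7 markers of proliferating cells had median log2 ratios of 0.06, 0.53, 1.09, and 0.58, with 0 called. The 5 markers of nonclassical monocytes had median log2 ratios of 1.27, -0.39, -0.53, and -1.03, with summed levels of 184, 95.7, 77.9, and 73.3 normalized CPM in FCGR4+ and 84.3, 103, 172, and 138 in FCGR4- libraries. They were higher in the FCGR4+ library of mouse 1 and lower in those of the other mice. By contrast, the members were lower in mouse 1 and higher in the other mice. The log2 fold change was above 0 in only 1 of the 5 markers, and the median of the 5 was -0.30. That 1 marker, Cd300e, was called higher (log2 fold change 2.36 ± 0.39, SE; edgeR adjusted P = 0.0631). The call of Cd300e was lost without mouse 1, 2, or 4 (edgeR adjusted P between 0.120 and 0.157) and without the replicate block (0.289). The 4 markers of classical monocytes had summed levels of 258 to 1886 against 416 to 2723 CPM. Their part in the members' ratios was not tested.

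Among large subunit genes, the acidic stalk proteins recruit the GTPase factors of translation. Rplp0, their anchor and a common reference gene, had 363, 472, 578, and 511 normalized CPM in FCGR4+ libraries of mice 1 to 4 and 407, 411, 516, and 546 in FCGR4- libraries. It was one of the members closest to 0 (log2 fold change 0.03 ± 0.13, SE). Its partners Rplp1 and Rplp2 had log2 fold changes of 0.33 ± 0.22 and 0.33 ± 0.22, with log2 ratios of 1.05 and 1.04 in mouse 3. Rplp0 had a log2 ratio of 0.16 in that mouse.

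Rpl35a had 86.8, 88.6, 231, and 192 normalized CPM in FCGR4+ libraries and 101, 77.8, 105, and 122 in FCGR4- libraries. Its FCGR4+ libraries of mice 3 and 4 stood above the other 6. Its log2 fold change was 0.44 ± 0.23 (SE; edgeR adjusted P = 0.565). Rpl23, a large subunit protein that can bind MDM2, was at 0.42 ± 0.20. Rpl5 and Rpl11, which join 5S rRNA and also restrain MDM2, were at 0.31 ± 0.16 and 0.24 ± 0.21. Rpl38, known from patterning defects in mutant mice, had a mouse 3 ratio of 1.08 on the log2 scale, and Rpl10a had one of 0.89. At the other end, Rpl4, which lines the peptide exit tunnel, was at 0.07 ± 0.12.

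Rps20 had the highest log2 fold change of the small subunit genes. It had 95.4, 93.1, 203, and 169 normalized CPM in FCGR4+ libraries and 101, 80.9, 89.5, and 112 in FCGR4- libraries. Again, the FCGR4+ libraries of mice 3 and 4 were highest, and the other libraries overlapped. Its log2 fold change was 0.47 ± 0.22 (SE; edgeR adjusted P = 0.533). Rps27a, which is made as a fusion with ubiquitin, was at 0.43 ± 0.20.

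Rpsa, the laminin receptor precursor that also sits in the small subunit, was the subunit gene nearest to 0. Its FCGR4+ libraries had 354, 441, 617, and 543 normalized CPM and its FCGR4- libraries 408, 477, 481, and 540. Its log2 fold change was 0.01 ± 0.14. Rps6, the substrate of S6 kinase, was at 0.21 ± 0.17. Rps3, which also acts in DNA repair, was at 0.09 ± 0.16, and Rps19, mutated in Diamond-Blackfan anemia, was at 0.17 ± 0.18. Rps25 was at 0.15 ± 0.18, Rps26 at 0.32 ± 0.21, and Rps14 at 0.23 ± 0.24. Among genes used as qPCR references, Rps18 was at 0.23 ± 0.19, Rpl32 at 0.31 ± 0.24, and Rpl13a at 0.39 ± 0.24. The log2 ratio of Rpl32 ran from -0.49 in mouse 1 to 1.04 in mouse 3.

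The size of the swing went with the length of the coding sequence, as a description across the 77 subunit genes, which share libraries and are not independent. Spearman's rho between coding length and the log2 ratio was 0.52, 0.37, -0.67, and -0.58 in mice 1 to 4. The 27 genes with under 400 coding bases had median ratios of -0.37, 0.10, 1.04, and 0.47 in mice 1 to 4. The 50 longer genes had -0.28, 0.17, 0.74, and 0.34. Other protein-coding genes with a mean above 50 CPM also differed by length. The 202 with a transcript under 1000 bases had medians of -0.19, -0.02, 0.53, and 0.40, and the 2348 longer ones had 0.17, 0.05, -0.04, and -0.00. Subunit genes with transcripts under 1000 bases (44 genes) were at -0.33, 0.13, 0.92, and 0.41. Those with longer transcripts (33 genes) were at -0.28, 0.17, 0.78, and 0.34.

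**Figure D4:**
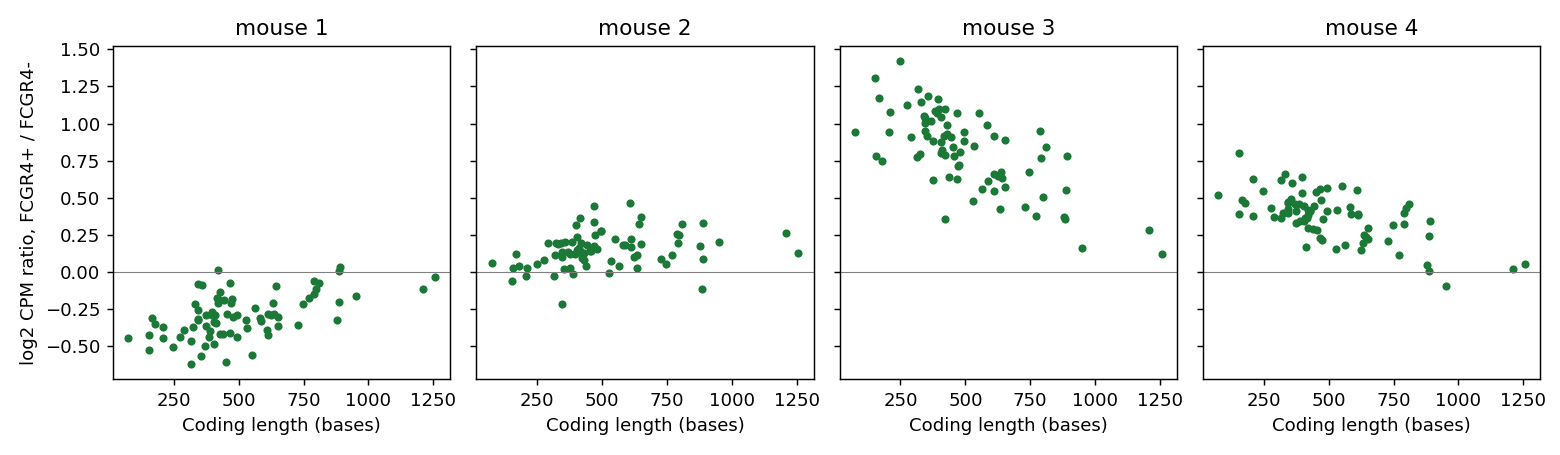
Log2 CPM ratio of FCGR4+ over FCGR4- libraries (y axis) against coding length in bases (x axis) for the 77 subunit genes, 1 panel per mouse. Coding length is that of each gene's longest annotated coding transcript. Short genes lie lowest in mouse 1 and highest in mice 3 and 4, where Spearman's rho is -0.67 and -0.58.

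Among the paralogs, Rps27l, a p53 target, had 88.1, 84.3, 212, and 192 normalized CPM in FCGR4+ libraries and 109, 99.3, 96.5, and 109 in FCGR4- libraries. It was lower in FCGR4+ macrophages of mice 1 and 2 and higher in those of mice 3 and 4 (log2 fold change 0.35 ± 0.27, SE; edgeR adjusted P = 0.671). Rpl22l1, a paralog of Rpl22, went the same way by mouse, with log2 ratios of -0.19, -0.16, 1.28, and 0.68 (0.40 ± 0.26). Rpl36al was at 0.25 ± 0.17 and Rpl7l1 at 0.11 ± 0.13. Rpl39l had between 0.0147 and 0.415 normalized CPM, and its log2 fold change of 0.87 ± 0.95 rested on few counts. Rpl3l, the striated muscle form of Rpl3, had 3 to 24 counts per library, Rpl10l, known from testis, had 0 to 17, and neither was tested. Rps12l1 had 0 counts in all libraries, and 100% of its exon bases overlapped another gene, where pairs over several genes entered no count, so its 0 says nothing of its expression. Rps19bp1 was at 0.06 ± 0.21.

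Ratios of 2 retrocopies stood close to those of their parents. Rps27rt, with 91.1% of its 50-base words in Rps27, had log2 ratios of -0.45, -0.03, 0.74, and 0.41 in mice 1 to 4, against -0.42, 0.03, 0.78, and 0.39 for Rps27. Rps3a2, with 76.7% of its words in Rps3a1, had -0.13, 0.28, 0.71, and 0.34, against -0.15, 0.20, 0.77, and 0.32. Reads over the shared words of such pairs cannot be told apart. Rps4l was the only tested member with a log2 fold change below 0. It had 1.40, 3.60, 2.41, and 7.60 normalized CPM in FCGR4+ libraries and 3.06, 4.03, 3.39, and 8.26 in FCGR4- libraries, lower in FCGR4+ macrophages of 4 of 4 mice. Its log2 fold change was -0.47 ± 0.26 (SE; edgeR adjusted P = 0.595). Rps4x had 199, 206, 389, and 327 normalized CPM in FCGR4+ and 207, 173, 201, and 248 in FCGR4- libraries, and its log2 fold change was 0.39 ± 0.18.

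**Figure D5:**
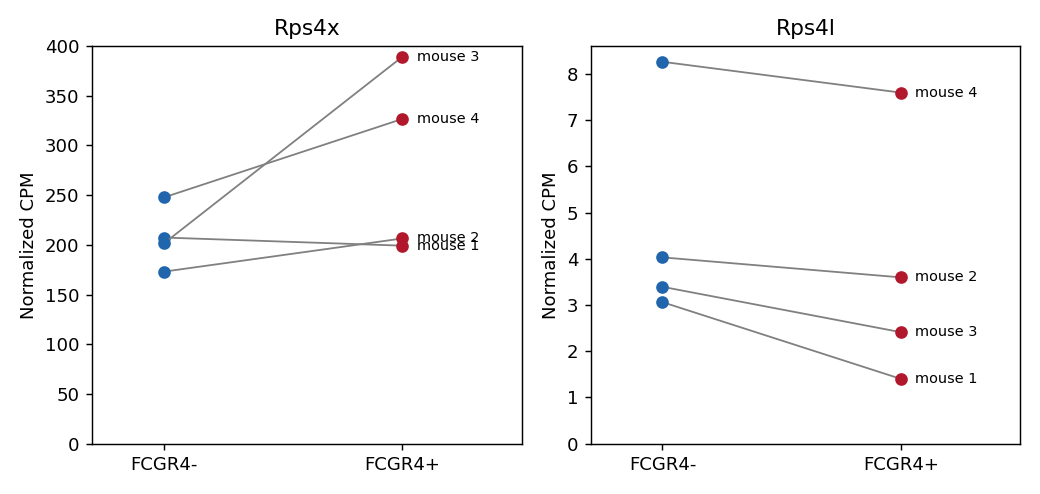
Normalized CPM (y axis, starting at 0) of Rps4x (left) and its diverged retrocopy Rps4l (right) in FCGR4- and FCGR4+ libraries, with lines joining the libraries of a mouse. Rps4l is lower in FCGR4+ libraries of 4 of 4 mice, and Rps4x is higher in those of mice 2, 3, and 4.

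Levels per length spread widely among the members. In length-scaled transcript abundance (TPM) from the deposited gene lengths, the median over the 77 subunit genes was 166. Among the 5 highest were Rpl36 at 586 ± 149, Rps29 at 542 ± 130, and Rplp1 at 531 ± 111 TPM (SD over 8 libraries), which lay within 1 SD of each other. The 5 lowest tested members were Rpl39l at 0.449, Rps4l at 7.15, Rpl13a at 9.63, Rps19bp1 at 17.9, and Rps15a at 24.0 TPM. Rpl13a stood low for a subunit gene. Of its exon bases 35.4% overlapped another gene, compared with 66.2% in Rpl35 at 172 TPM, 62.3% in Rpl23a at 111 TPM, and 47.0% in Rpl24 at 64.5 TPM, and the part of overlap in its level was not tested. With the longest coding transcript as length, the median of the subunit genes was 250 TPM, so these levels depend on the annotation used. Only 10 tested members had under 10% of their words in other genes. Their median log2 fold change was 0.21, compared with 0.28 for the other 80.

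The genes around the ribosome gave 0 calls in each list, where 1.27% of all tested genes were called, so that few or no calls would be near the background in lists of this size. The mitochondrial ribosomal proteins, which serve a separate ribosome, were above 0 in 76 of 81 tested, with a median log2 fold change of 0.23 and medians by mouse of -0.08, 0.07, 0.51, and 0.37. Elongation factors and other TOP genes were above 0 in 25 of 28 (median 0.20), with Eef1a1 at 0.22, Tpt1 at 0.46, and Eef2 at -0.03. Fau and Rack1, ribosome parts whose names fall outside the rule, were at 0.19 and 0.14. Initiation factors were above 0 in 18 of 30 (median 0.06). Ribosome biogenesis genes were above 0 in 39 of 82 (median -0.01), and RNA polymerase I and rDNA transcription genes in 5 of 12 (median -0.11). Myc and mTORC1 genes were above 0 in 21 of 38 (median 0.04), ribosome quality control and rescue genes in 7 of 20 (median -0.05), proteasome subunits in 31 of 40 (median 0.12), and mitochondrially encoded genes in 23 of 29 (median 0.21). Named ribosomal protein pseudogenes were above 0 in 189 of 202, with the members' own median of 0.27.

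Of 2550 other protein-coding genes above 50 CPM, those whose 4 ratios lay nearest to the members' medians were Cox6b1, Cox4i1, Dbi, Ubl5, and Rpl9-ps6, with a largest difference in any mouse between 0.0631 and 0.0843. Cox6b1 and Cox4i1 encode subunits of mitochondrial cytochrome c oxidase, Dbi a binding protein for acyl-CoA, and Ubl5 a ubiquitin-like protein. Rpl9-ps6 is listed as protein-coding but bears the name of a pseudogene of the member Rpl9. Pairs that map to both enter both counts, so it is not independent of the members. Cox6b1 had log2 ratios of -0.24, 0.09, 0.79, and 0.45 in mice 1 to 4.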

How the data were processed

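Per the file headers and labels, the authors mapped read pairs to mm10 with STAR and counted them on GENCODE M18 genes with featureCounts 1.6.3. The deposited values are raw counts for 54146 genes, without normalization. Pairs with several mapping positions entered the count of each, those over several genes entered none, and strand was ignored. The deposited gene length, given by the authors as a further value of no fixed scale, served for TPM. All per-sample columns were used (0 left out).

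A few genes are not reported here one by one; they stay in the fits, counts, and medians. The members and gene lists were chosen with earlier results of these data known. The split into paralogs and retrocopies was made after the counts had been seen. Named genes were members past the threshold, the 5 highest and 5 lowest by TPM and by log2 fold change, a fixed list of subunits, reference genes, and paralogs, and the nearest non-members. Rps4x, Rps27, and the other parents of copies, and the list genes named, were chosen after their values had been seen.

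Genes reaching 10 counts in 4 or more libraries were tested with edgeR 4.0.16 (R 4.3.3): TMM, mouse as a block, quasi-likelihood test, Benjamini-Hochberg adjustment over 17095 genes, threshold 0.1. Libraries were paired by the mouse in the labels; deviations of libraries of the same mouse correlated at 0.291 to 0.428. Standard errors were the log2 fold change over the square root of F. Ratios by mouse used a prior count of 2. No 2 libraries were duplicates (chi-square per degree of freedom at least 83.6). On simulated data for this comparison (17095 genes), 51% of 2-fold and 92% of 4-fold changes were recovered, with 12 of 155 calls on unchanged genes. Shared sequence was measured with 50-base words in GENCODE transcripts of the same build. Alternatives were DESeq2 1.42.0, other scalings, filters, and thresholds, no block, leaving out each mouse, and each ID prefix alone; edgeR's newer method, the prefix interaction, and the length splits were added after the data had been seen.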

Additional observations from a re-analysis of the deposited data

How the results depend on the processing

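The count of members past the threshold stayed at 0 in both directions under every alternative run. Without the replicate block, the pairing being that of the mouse, 48 of 17095 genes were called (0.281%), again with 0 members, and the member median was 0.34. The count over all genes was 1054 when low counts were not filtered, 1024 by DESeq2, 629 with the newer quasi-likelihood method, 76 at a threshold of 0.05, 115 in mice 1 and 2 alone, and 72 in mice 3 and 4 alone. Leaving out 1 mouse gave 78 to 162 genes (78 without mouse 1, 118 without mouse 2, and 91 without mouse 4) and a member median of 0.06 (without mouse 3) to 0.45 (without mouse 1). The median level per length moved from 166 to 250 TPM with the longest coding transcript as length. The cause of these shifts was not tested.

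No named member was past the threshold under any alternative. With at least 10 counts in every library, Rpsa was at -0.0044. With library size alone, Rpl4 was at -0.0228, Rplp0 at -0.0632, Rps19bp1 at -0.0301, and Rpsa at -0.077. In mice 1 and 2 alone, 22 of 33 named members changed sign to below 0: Rpl11 -0.155, Rpl22l1 -0.179, Rpl32 -0.126, Rpl35a -0.0156, Rpl36 -0.326, Rpl36al -0.0432, Rpl38 -0.211, Rplp1 -0.0603, Rplp2 -0.0962, Rps14 -0.234, Rps15a -0.208, Rps18 -0.0752, Rps19 -0.132, Rps19bp1 -0.152, Rps25 -0.172, Rps26 -0.0791, Rps27l -0.275, Rps27rt -0.241, Rps29 -0.0939, Rps3 -0.138, Rps6 -0.0828, and Rpsa -0.159. Leaving out 1 mouse at a time, log2 fold changes ran from -0.105 to 0.370 for Rpl36, -0.0310 to 0.0898 for Rplp0, -0.0350 to 0.464 for Rps15a, -0.0149 to 0.315 for Rps19, -0.127 to 0.239 for Rps19bp1, -0.0150 to 0.326 for Rps25, -0.0331 to 0.375 for Rps27rt, -0.0331 to 0.243 for Rps3, and -0.114 to 0.0855 for Rpsa. The values below 0 came without mouse 3, and for Rplp0 also without mouse 2. Among the members named beside the rule, Rps27 was at -0.199 in mice 1 and 2 alone and ran from -0.0121 (without mouse 3) to 0.400, and Rpl35 was at -0.184 and Rpl22 at -0.122 in mice 1 and 2 alone. The other members named by the rule, and Rps4x, Rps3a1, Rps3a2, Rpl7a, Rpl23a, and Rpl24, kept their sign. Of the other genes named, Cox6b1 was at -0.0770, Fau at -0.132, and Eef2 at 0.169 in mice 1 and 2 alone, and Eef2 ran from -0.121 to 0.0703 (without mouse 4) with 1 mouse left out. With 4 mice, changes of 2-fold were often missed on simulated data, and those of the members were smaller.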
